A study of Mus musculus with 2 samples.

Results

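The genes described here are 10 lysosomal proteases and protease inhibitors, taken by gene symbol from the 32285 genes of both deposited matrices. Of these, 8 are cathepsins (Ctsa, Ctsb, Ctsc, Ctsd, Ctsh, Ctsl, Ctss and Ctsz) and 2 are cystatins (Cst3 and Cst7), and each symbol was found once. The cells were late promyelocytes, sorted as Cd45.2+, C-Kit+, Gr1+, Cd34- and FcγR+ from leukemic bone marrow of mice in which the PLZF/RARA fusion had transformed the progenitors. PLZF/RARA is a fusion of the retinoic acid receptor alpha that drives a form of acute promyelocytic leukemia in which retinoic acid has little effect. Both groups carried this fusion and were injected intraperitoneally over 7 days, the vehicle group with corn oil containing 10% DMSO and the other group with 0.8 to 1 mg of retinoic acid. A cohort held 3 to 5 mice, and the labels do not say how many mice gave cells to a library, nor their strain or age.

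Cathepsins are proteases that digest proteins in the lysosome, and they are grouped by the residue that cuts: an aspartate in cathepsin D, a serine in cathepsin A and a cysteine in the others listed here. Cystatins bind in the active site of the cysteine cathepsins and block them. In myeloid cells the balance matters for more than digestion, because cathepsin C trims the serine proteases that promyelocytes pack into their primary granules, and cystatin F, the product of Cst7, is a lysosomal inhibitor that acts on cathepsin C.

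Each group was 1 droplet library of 3′ ends, in which a UMI (unique molecular identifier) marks 1 captured RNA molecule. After removal of poor barcodes, 5476 vehicle cells with a median of 16750 UMIs and 7140 retinoic acid cells with a median of 14604 UMIs remained, and 11 barcodes occurred in both libraries. Levels are CPM, a gene's UMIs scaled to a common library total, which for 3′ ends needs no scaling by gene length. With 1 library a group no test was possible, so every difference below is between these 2 libraries. The 95% intervals cover counting error only, not the spread between mice or preparations. Those of levels and ratios also leave out the spread between cells. A difference is the log2 of retinoic acid over vehicle.

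At least 3 of 6 promyelocyte markers were found in 81.0% of vehicle and 94.1% of retinoic acid cells, but the libraries differed in more than the treatment label. Of those markers, Mpo had 30857 UMIs in the vehicle library and 55 with retinoic acid, and Elane stood at 62.8 and 7663 CPM. The summed level of 9 maturing neutrophil markers was 1601 CPM with vehicle and 61809 CPM with retinoic acid. That of 8 basophil or mast cell markers was 1072 and 83.2 CPM, and 28.3% of vehicle cells but 0.0751% of retinoic acid cells had at least 3 of them. Of the 6 with at least 10 UMIs, 5 were lower with retinoic acid and 1, Ms4a2, was higher (1.45 and 2.05 CPM). Fcer1a had 0 UMIs in both libraries, and Prss34 had 6 with vehicle and 0 with retinoic acid. The 12 monocyte or macrophage markers summed to 86.6 and 15.7 CPM, with 9 of them under 1 CPM in each library and no cell with at least 3. What part these other programs had in the results was not tested, except where values without those cells are given.

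Among the cathepsins, 2 carry in a RefSeq promoter window (250 bases before to 50 after a start site) the 8-base palindrome TCACGTGA, the core of the sequence that the lysosomal gene regulators of the Tfeb and Tfe3 family are known to bind. The stretches below end before or near the start sites, are read 5′ to 3′ on the gene's strand, and show the palindrome in capitals. They are shown because these are the members whose windows hold it.
Ctsa, chr2:164833714-164833772, plus strand, GRCm38.p6: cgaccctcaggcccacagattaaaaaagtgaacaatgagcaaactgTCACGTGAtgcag
Ctsd, chr7:142387873-142387972, minus strand, GRCm38.p6: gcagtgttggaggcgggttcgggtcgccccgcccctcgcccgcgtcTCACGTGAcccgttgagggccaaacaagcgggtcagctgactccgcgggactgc
The palindrome begins 13 bases before a RefSeq start site of Ctsa and 99 bases before that of Ctsd. Another copy lies just past that start site of Ctsa and is not printed. The Ctsa site belongs to the second of 2 windows of that gene, 900 bases from the annotated gene start, and the nearer window holds none. Windows were found for 8 of the 10 genes, not for Ctsb or Ctsh. The palindrome occurred in 2 of those 8, in 6 of 33 other lysosomal genes with a window (18.2%) and in 304 of all 27025 genes with one (1.12%). Its inner 6 letters, CACGTG, occurred in 3 of the 8 (Ctsl also, but not Ctsz), in 10 of the 33 lysosomal genes (30.3%) and in 8.09% of all genes. The longer 10-base form, with G before and C after the palindrome, occurred in 0 of the 8 members with a window. That form was found in 2 of the 33 lysosomal genes (6.06%) and in 0.37% of all genes. A match of letters is a description of the window and shows no binding.

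The most abundant members were the inhibitors. Cst7 (cystatin F, chromosome 2, 150570415 to 150578944) stood at 813 CPM with vehicle and 706 CPM with retinoic acid. Cst3 (cystatin C, a secreted inhibitor of cysteine cathepsins, chromosome 2, 148871722 to 148875692) stood at 489.7 and 449 CPM. Cst7 ranked 184 and 213 and Cst3 ranked 279 and 294 among all genes, so each held nearly the same place in both libraries. Their log2 differences were -0.20 (95% interval -0.22 to -0.19) for Cst7 and -0.12 (-0.14 to -0.11) for Cst3. Such small differences depended on the total: with 7 dominant neutrophil genes left out of it they were -0.10 and -0.02.

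The aspartic protease cathepsin D was the most abundant cathepsin of the 8. Ctsd (chromosome 7, 142375911 to 142388038) had 243 CPM with vehicle and 140.2 CPM with retinoic acid, a log2 difference of -0.79 (-0.82 to -0.76). Its rank went from 549 to 967. Ctsa (chromosome 2, 164832873 to 164841032) encodes cathepsin A, a serine carboxypeptidase that also shields the lysosomal enzymes β-galactosidase and neuraminidase. Ctsa had 62.3 CPM with vehicle and 37.6 CPM with retinoic acid, a log2 difference of -0.73 (-0.78 to -0.67).

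The cysteine cathepsins did not all differ alike. Ctsz (chromosome 2, 174427493 to 174439039), whose product removes residues from the C terminus of proteins, went from 153 to 83.7 CPM, a log2 difference of -0.87 (-0.91 to -0.84). Ctsh (chromosome 9, 90054152 to 90076089), which encodes an aminopeptidase, stood at 48.4 and 23.3 CPM, a log2 difference of -1.06 (-1.13 to -0.99). Ctsl (chromosome 13, 64359337 to 64370890), which encodes a broad endopeptidase, stood at 22.8 and 9.29 CPM, and its log2 difference of -1.30 (-1.40 to -1.19) was the widest of the members above 20 CPM. Ctsb (chromosome 14, 63122462 to 63145923) encodes cathepsin B, an endopeptidase that also trims dipeptides from the C terminus. It was the exception, with 37.0 CPM under vehicle and 39.5 CPM under retinoic acid, a log2 difference of 0.09 (0.03 to 0.16).

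Ctss and Ctsc were barely counted. Ctss (chromosome 3, 95526786 to 95556403), known for processing the invariant chain in antigen presenting cells, had 5 UMIs in all vehicle cells and 17 in all retinoic acid cells, a log2 difference of 1.52 with an interval of 0.12 to 3.41. Ctsc (chromosome 7, 88278085 to 88310888) had 0 UMIs in the vehicle and 1 UMI in the retinoic acid library, and the limit taken for a count of 0, that of 3 counts, is 0.0303 and 0.0273 CPM in these libraries. Its known substrates were abundant in the same cells: Ctsg had 6444 and 5979 CPM, and Prtn3 had 246 and 2819 CPM. The gene that follows Ctsc on the same strand, Gm44751, begins 590 bases past its annotated end and also had 0 UMIs in both libraries. Whether the RNA of Ctsc and Ctss was absent or its 3′ end was not counted was not tested.

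**Figure D1:**
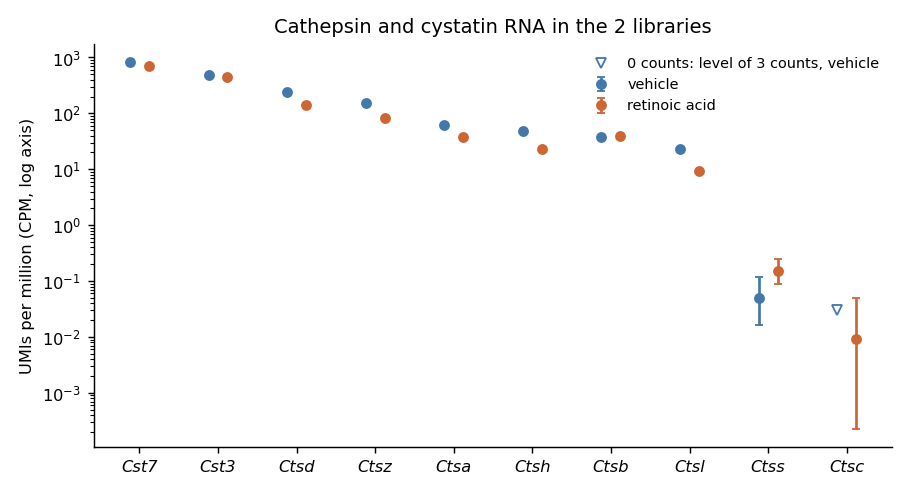
Level of each member in both libraries in CPM on a log axis, with 95% counting intervals; an open triangle marks the level of 3 counts, the limit taken for a count of 0. Cst7 and Cst3 lie highest and nearly together between libraries, Ctsd, Ctsz, Ctsa, Ctsh and Ctsl are lower with retinoic acid, and Ctsc and Ctss lie near 0.

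Of the 10 members, 8 reached 20 CPM in either library, and 2 of these 8, Ctsh and Ctsl, were at least 2-fold lower with retinoic acid. Under TMM scaling, which shifted all ratios by 0.08, Ctsh was at -0.98 and no longer counted. Without cells that had at least 3 basophil, mast cell or eosinophil markers Ctsh was at -0.27, as described further on. Among all 5548 genes that reached 20 CPM, 8.07% were at least 2-fold apart in either direction, 3.03% higher and 5.05% lower. The median difference was -0.73 over the 9 members with at least 10 UMIs, against 0.01 over the 5548 genes. Split by role, the 7 such cathepsins had a median of -0.79, and the 2 cystatins had a median of -0.16. Summed, the 8 cathepsins made up 567 CPM with vehicle and 334 CPM with retinoic acid, while the cystatins made up 1303 and 1155 CPM.

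Other lysosomal genes had a smaller median difference between whole libraries. Over all 5548 genes that reached 20 CPM, 2802 were higher and 2746 lower with retinoic acid. Of 41 listed enzymes, membrane proteins and regulators, 12 were higher and 29 lower, with a median difference of -0.25. At least 2-fold lower were Cd68, a myeloid lysosomal membrane protein (86.6 to 11.2 CPM), Glb1, which encodes the β-galactosidase that cathepsin A shields (107 to 23.0 CPM), the glucosidase gene Gaa (25.5 to 9.51 CPM), Tfe3 (5.59 to 1.17 CPM) and Lgmn, at 12 and 6 UMIs. At least 2-fold higher were Acp5 (1.19 to 5.26 CPM) and the lysosomal sorting receptor Igf2r (2.85 to 5.99 CPM). Of the 25 genes of the list that reached 20 CPM, 3 were at least 2-fold lower and 0 higher, beside 5.05% and 3.03% of all such genes.

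Members of that list with other functions were spread between these ends. Lamp1, a main protein of the lysosomal membrane, had 142 and 155 CPM, and Cd63, found in granule and lysosome membranes, had 1912 and 1688 CPM. The progranulin gene Grn had 216 and 116 CPM and the cholesterol carrier gene Npc2 had 258 and 156 CPM, sizes like that of Ctsd. Of the regulators, Tfeb had 9.04 and 9.59 CPM and Mitf 1.66 and 2.04 CPM, unlike Tfe3.

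**Figure D2:**
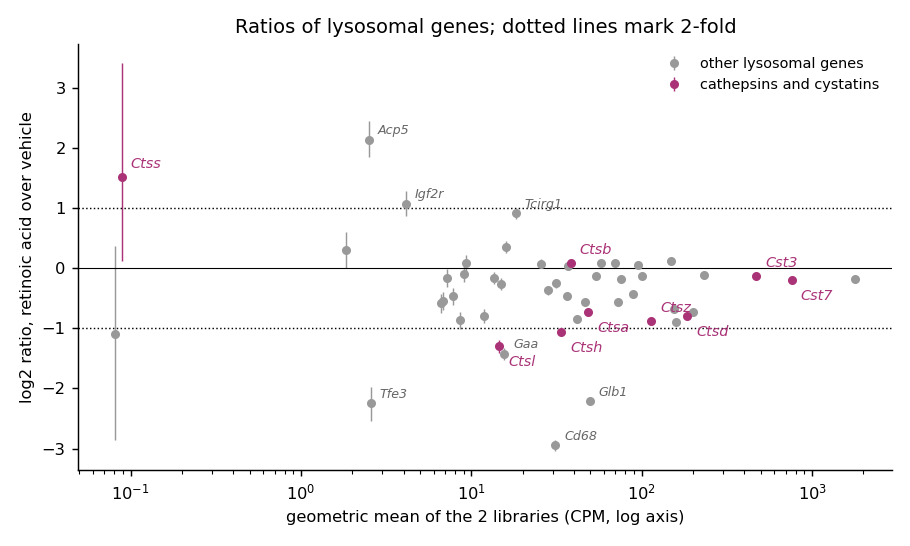
Log2 difference, retinoic acid over vehicle, against the geometric mean level in CPM (log axis) for members and other lysosomal genes with at least 10 UMIs; bars are 95% counting intervals and dotted lines mark 2-fold. Ctsl and Ctsh lie below the lower line, Cst3, Cst7 and Ctsb lie near 0, and Cd68, Glb1 and Tfe3 are the lowest of the other genes.

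The same families hold 32 further genes, of which 18 had no UMI in either library. Ctsw, known from cytotoxic lymphocytes, had 24.2 CPM with vehicle and 2.72 CPM with retinoic acid, a log2 difference of -3.16. Ctse, an aspartic protease of the endosome, had 278 and 14 UMIs, while Ctso had 8.80 and 10.5 CPM. Ctsk and Ctsf had 1 UMI each, both in the vehicle. The cytosolic inhibitor gene Cstb had 223 and 186 CPM, a log2 difference of -0.26, close to that of Cst7. A cluster of stefin genes on chromosome 16 went the other way, with Cstdc5 at 9.21 and 787 CPM, Csta2 at 1979 and 5939 UMIs and Cstdc4 at 0.626 and 32.5 CPM. These stefins are near copies of each other, so the split of reads among them is uncertain.

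To compare cells at equal depth, each was thinned to 5000 UMIs, which left out 194 vehicle and 481 retinoic acid cells and kept 5282 and 6659. A Ctsd UMI was then found in 68.4% of vehicle cells and 48.8% of retinoic acid cells, a difference of -19.6 percentage points (-21.3 to -17.8). The share with a Ctsz UMI was 50.5% in the vehicle and 33.2% with retinoic acid (-17.3 points), and that with a Ctsa UMI was 27.1% and 16.7% (-10.4 points). Before thinning the shares were 94.996% and 80.5% for Ctsd, 84.5% and 63.5% for Ctsz, and 63.5% and 41.2% for Ctsa. These 3 cathepsins were therefore found in a smaller share of cells with retinoic acid, both before and after thinning.

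Of the rarer members, Ctsh and Ctsl were found in a smaller share of retinoic acid cells. Ctsh was found in 18.6% and 10.8% of thinned cells (38.7% and 24.0% before thinning), and Ctsl in 10.5% and 4.37% (31.0% and 12.6%). Ctsb was found in 16.7% of thinned vehicle cells and 17.6% of thinned retinoic acid cells, a difference of 0.88 points with an interval of -0.49 to 2.23 that spans 0, and in 45.2% and 41.9% before thinning. Ctss was found in 0.0379% and 0.0901% of thinned cells (0.0913% and 0.182% before thinning). The single Ctsc UMI lay in 1 retinoic acid cell, 0.0150% of the thinned cells and 0.0140% of all, and 0 of 5282 vehicle cells had any.

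Cystatin RNA was found in most cells of both libraries. Cst7 was found in 96.2% of thinned vehicle cells and 91.6% of thinned retinoic acid cells (98.2% and 94.1% before thinning), with medians of 4 and 3 UMIs. Cst3 was found in 89.9% and 86.9% (97.8% and 95.4%), with a median of 2 UMIs in each. Counted over all 10 genes, a thinned vehicle cell showed a median of 4 members (quartiles 3 and 5) and a thinned retinoic acid cell a median of 3 (2 and 4), and no cell showed all 10. The cells with at least 4 members made up 58.7% of the vehicle and 33.5% of the retinoic acid library, a difference of -25.2 points (-27.0 to -23.5). No cell had 3 or more lymphoid or erythroid markers, so the share that free RNA alone would give could not be measured in cells lacking these genes. At least 1 UMI of an erythroid marker was found in 1.55% of vehicle and 0.0751% of retinoic acid cells.

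Ctsh was more unevenly spread over cells than Ctsa, which had a similar level in the vehicle. In thinned vehicle cells the tenth of cells with the most Ctsh UMIs held 69.7% of them, against 45.6% for Ctsa, which was found in more cells. For Ctsl, found in fewer cells than either, that share was 95.4%. A thinned vehicle cell held at most 12 Ctsh UMIs and at most 4 Ctsa UMIs. Ctsd reached 24 UMIs in a thinned vehicle cell.

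The retinoic acid cells covered a wide range of granule gene share, the percent of UMIs per thinned cell in Camp, Ngp, Ltf and Lcn2, genes for later granule proteins of neutrophils. Cut at 0.1, 0.5, 2 and 8 percent, the retinoic acid library gave 156, 1210, 2081, 1873 and 1339 cells, and the vehicle library gave 4429, 681, 98, 52 and 22. The 22 vehicle cells of the highest group were too few for a comparison.

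Along this scale, Cst7 RNA was lower and Ctsh RNA higher in the most granule-rich retinoic acid cells. From the lowest to the highest group, Cst7 stood at 837, 849, 796, 657 and 364 CPM, between 796 and 849 over the lower 3 groups and lowest in the last. Ctsh stood at 19.7, 11.1, 13.4, 24.8 and 60.7 CPM, lowest in the second group and highest in the last. Ctsd stood at 136, 127, 122, 131 and 207 CPM, between 122 and 136 until the last group. Cells of the highest group were shallower, with a median of 10281 UMIs against 19135 in the lowest.

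The other members were lower or level at the rich end. Cst3 stood at 493, 472, 483, 451 and 325 CPM, and Ctsz at 95.5, 91.3, 89.3, 83.9 and 57.3 CPM. Ctsa stood at 41.8, 40.8, 40.8, 35.7 and 28.6 CPM, the same course as Ctsz on a smaller scale. Ctsl stood at 13.9, 13.6, 10.2, 7.27 and 3.92 CPM, lowest at the rich end. Ctsb stayed between 36.6 and 41.3 CPM in all 5 groups.

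Highest over lowest group, the log2 difference within the retinoic acid library was 1.61 for Ctsh (1.25 to 2.02) and 0.60 for Ctsd (0.46 to 0.76). It was -1.20 for Cst7 (-1.27 to -1.13), -1.83 for Ctsl (-2.42 to -1.23), -0.74 for Ctsz, -0.60 for Cst3, -0.55 for Ctsa and 0.04 for Ctsb (-0.25 to 0.35). Over all 5578 genes above 20 CPM in either group the median was -0.45, and 20.9% were at least 2-fold apart, 5.41% higher and 15.5% lower. Of the 7 members above 20 CPM, Ctsh was at least 2-fold higher and Cst7 at least 2-fold lower. The 4 granule genes themselves took 12.9% of the UMIs of the highest group, and leaving them out of the total put the difference at 1.81 for Ctsh, 0.80 for Ctsd and -1.002 for Cst7. The lowest group held 3 cells with at least 3 eosinophil markers. Without them Ctsh was at 14.0 CPM there, and its difference was 2.10.

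In the vehicle cells too, Ctsh was highest and Cst7 lowest in the richest of the groups that could be compared, but not all members ran alike. From the lowest group to that of 2 to 8 percent, Ctsd stood at 239, 235, 273 and 405 CPM. Ctsh stood at 46.1, 54.0, 63.3 and 92.2 CPM, Ctsb at 35.7, 42.8, 54.9 and 55.6 CPM, and Cst7 at 816, 835, 826 and 600.3 CPM. Over the same range of retinoic acid cells, Ctsd stayed between 122 and 136 CPM and Ctsb between 36.6 and 41.3 CPM. The log2 difference between the ends in vehicle cells was 0.77 for Ctsd (0.59 to 0.93), 1.01 for Ctsh (0.63 to 1.35), 0.66 for Ctsb (0.16 to 1.08) and -0.44 for Cst7 (-0.58 to -0.31). It was 0.11 for Ctsa (-0.34 to 0.51), -0.45 for Ctsz (-0.79 to -0.15), -0.15 for Cst3 (-0.31 to 0.01) and -0.83 for Ctsl (-2.04 to 0.02). Only Ctsh of the 8 members above 20 CPM was at least 2-fold apart, beside 10.8% of 5766 genes.

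Between libraries at the same granule share, the cystatins differed little and 5 cathepsins were lower with retinoic acid. Cst7 differed by 0.04, 0.02, -0.05 and 0.13 on the log2 scale in the 4 groups, and each interval spanned 0. Cst3 differed by 0.02, -0.14, -0.07 and 0.04, and of these only the second had an interval without 0 (-0.18 to -0.09), about the size of the difference between whole libraries. Both cystatins were lowest in the granule-rich groups, which held more of the retinoic acid cells than of the vehicle cells.

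The cathepsins kept a gap in each of the 4 matched groups. Ctsd differed by -0.81 (-0.95 to -0.67), -0.89 (-0.96 to -0.81), -1.16 (-1.30 to -1.01) and -1.63 (-1.80 to -1.46). The last group held 52 vehicle cells with 299 Ctsd UMIs, and its interval leaves out the spread between cells. In that group, Ctsd had 405 CPM in vehicle cells and 131 CPM in retinoic acid cells. Ctsh differed by -1.21, -2.28, -2.24 and -1.90, and in the 0.1 to 0.5 percent group it had 54.0 CPM in vehicle and 11.1 CPM in retinoic acid cells. Each lay past the -1.06 of whole libraries, although the interval of the lowest group (-1.61 to -0.86) includes that value. These groups kept the cells with at least 3 basophil, mast cell or eosinophil markers. Without such cells the whole-library difference of Ctsh was -0.27, and matched groups without them were not compared.

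Ctsa, Ctsz and Ctsl had gaps of a more even size. Ctsa differed by -0.56, -0.66, -0.77 and -0.91, and Ctsz by -0.70, -0.72, -0.73 and -0.43. Ctsl differed by -0.70, -0.81, -1.001 and -0.82, the last with an interval from -1.70 to 0.40 that spans 0. The third value rests on 31 vehicle UMIs, with an interval of -1.51 to -0.40. With the granule genes left out of the total it was -0.999, short of 2-fold. Ctsb differed by 0.04, -0.12, -0.50 and -0.44, and of these only the third had an interval without 0 (-0.81 to -0.16). At least 2-fold apart were 1 of 8 members above 20 CPM in the lowest group (Ctsh), beside 5.4% of all such genes, and 1 of 8 in the next (Ctsh), beside 5.41%. In the group of 0.5 to 2 percent they were 3 of 8 (Ctsd, Ctsh and Ctsl), beside 7.77%, and in that of 2 to 8 percent 2 of 7 (Ctsd and Ctsh), beside 11%. The median over all genes in these comparisons lay between 0.00 and 0.12. Over the members above 20 CPM it was -0.63, -0.69, -0.75 and -0.44 from the lowest group to that of 2 to 8 percent. Other lysosomal genes with at least 10 UMIs had medians of -0.22, -0.38, -0.58 and -0.66, so lower values there were not particular to the members.

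**Figure D3:**
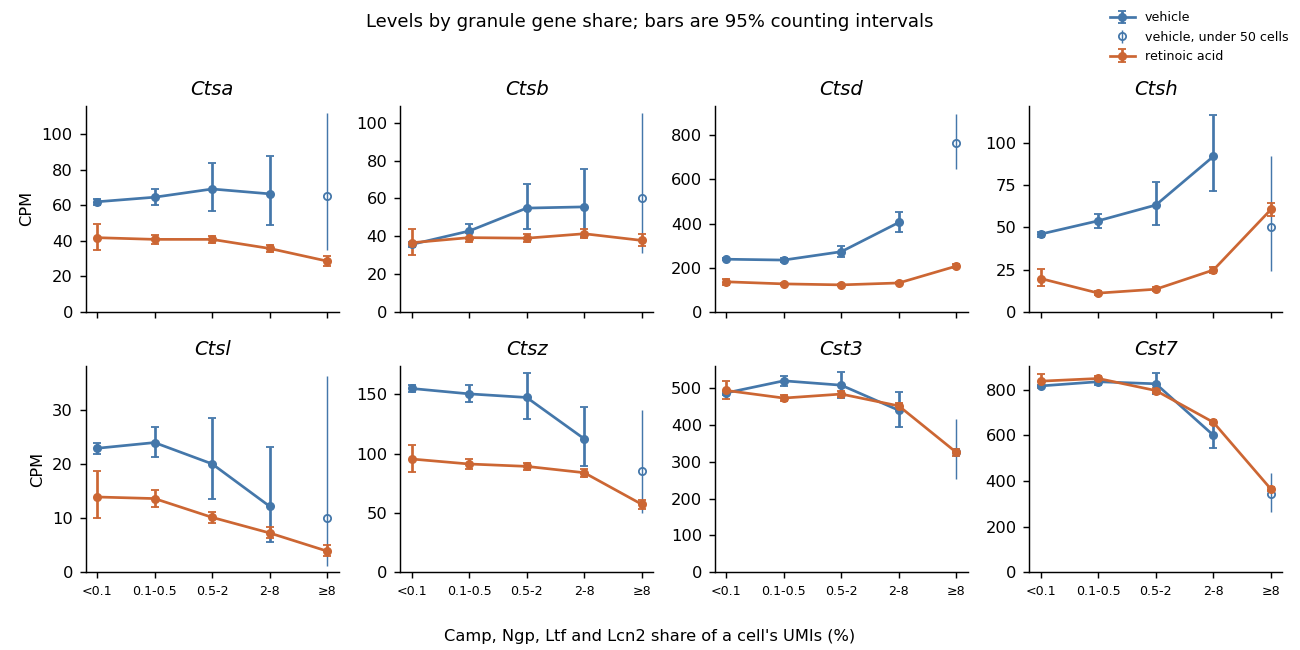
Level of 8 members in CPM by granule gene share (percent of UMIs in Camp, Ngp, Ltf and Lcn2), for vehicle and retinoic acid cells, with 95% counting intervals; the open point is the vehicle group of 22 cells. Cst3 and Cst7 follow nearly the same line in both libraries, whereas the retinoic acid points of Ctsa, Ctsd, Ctsh, Ctsl and Ctsz lie below the vehicle points in the groups that hold at least 50 cells of each library.

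Cells were next split at 0.2 percent of UMIs in 36 proliferation genes, and those at or above it are called cycling. From the lowest group to that of 2 to 8 percent they made up 49.9, 43.9, 34.7 and 30.8% of vehicle cells. Of retinoic acid cells in these groups they made up 76.9, 77.4, 77.8 and 79.2%. The higher Ctsd of the granule-rich group was found in the cells below the 0.2 percent limit. In cycling retinoic acid cells Ctsd stayed between 117 and 132 CPM in all 5 groups. In the remaining retinoic acid cells it stood at 148, 150.5, 177 and 315 CPM from the 0.1 to 0.5 percent group to the highest, where the lowest group had too few such cells. Within the highest group, cycling over remaining cells, the log2 difference of Ctsd was -1.25 (-1.36 to -1.15). There Ctsd was the only 1 of 7 members above 20 CPM that was at least 2-fold apart, beside 17.9% of 5067 genes. The remaining cells of that group were shallower, at a median of 8279 UMIs against 12351.

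Ctsh was higher toward the rich end in both kinds of retinoic acid cell. It had 10.4 CPM in cycling cells of the 0.1 to 0.5 percent group and 47.2 CPM in those of the highest group, and 14.8 and 80.1 CPM in the remaining cells. Cst3 and Cst7 showed the opposite side of the split in the highest group, where cycling cells had more of each: 355 against 282 CPM for Cst3, and 391 against 326 CPM for Cst7. These log2 differences, 0.33 and 0.26, were no larger than the median of 0.33 over all genes above 20 CPM in that comparison. In the vehicle library, cycling cells of the lowest granule group had 26.3 CPM of Ctsh against 78.3 CPM in the rest, a log2 difference of -1.58 (-1.67 to -1.48), and 198 against 304 CPM of Ctsd. Of 8 members there, only Ctsh was at least 2-fold apart, beside 7.95% of 5536 genes. Cells of the same granule share and cycling class were compared between libraries after the data were seen. In cycling cells under 0.1 and of 0.1 to 0.5 percent, Ctsd differed by -0.59 and -0.68, and Ctsh by -0.76 and -1.60. In the remaining cells of 0.1 to 0.5 and 0.5 to 2 percent, Ctsd differed by -0.92 and -0.98, and Ctsh by -2.44 and -2.20.

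**Figure D4:**
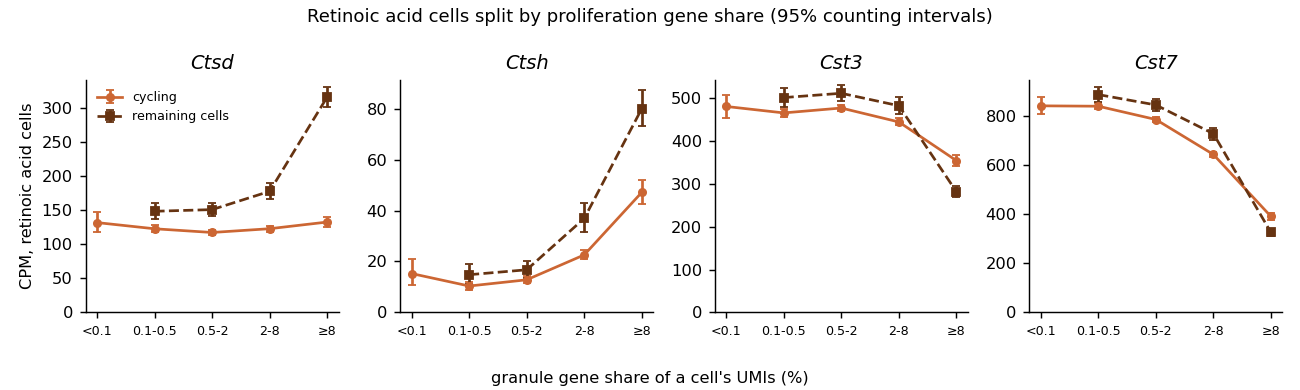
Level of Ctsd, Ctsh, Cst3 and Cst7 in CPM in retinoic acid cells by granule share, split into cycling cells and the remaining cells, with 95% counting intervals. Ctsd in cycling cells stays between 117 and 132 CPM while the remaining cells reach 315 CPM.

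In the vehicle library Ctsh followed the mast and basophil protease gene Cpa3. Thinned vehicle cells were sorted by whether they had at least 2 UMIs of Cpa3 or of Mpo, the myeloperoxidase gene of promyelocyte granules, which gave 2151 cells with Cpa3 only, 599 with Mpo only, 201 with both and 2331 with neither. Ctsh stood at 81.7 CPM with Cpa3 only, 11.0 CPM with Mpo only, 34.3 CPM with both and 31.3 CPM with neither. The cells with Mpo only were thus lowest and those with Cpa3 only highest, a log2 difference of -2.89 (-3.15 to -2.65). Ctsd followed the same order over a narrower range, at 283, 189, 231 and 222 CPM, a log2 difference of -0.58 (-0.64 to -0.52).

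The other members were nearly level between these cells, with differences from -0.14 for Ctsa to 0.24 for Cst7. Ctsh was the only 1 of 8 members at least 2-fold apart, beside 2.02% of 5434 genes. Cells with Mpo only were more often cycling, 74.0% against 29.8% with Cpa3 only. Among cycling cells alone the difference of Ctsh was -2.36, and among the remaining cells it was -2.74.

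By the number of Cpa3 UMIs, Ctsh was higher at each step. It stood at 24.6 CPM in cells with 0, 33.0 CPM with 1, 54.4 CPM with 2 to 4, 74.8 CPM with 5 to 9 and 137 CPM with at least 10. Ctsd stood at 214, 218, 256, 278 and 329 CPM over the same steps. The share of cycling cells was lower along these steps, from 64.6% to 8.97%.

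Cells that bore several markers of these lineages held much of the Ctsh RNA. The basophil or mast cell list includes Cpa3, and the 1495 vehicle cells with at least 3 of its markers held 57.6% of Ctsh UMIs. They had 104 CPM of Ctsh against 27.5 CPM in the rest. The 53 vehicle cells with at least 3 eosinophil markers had 473 CPM of Ctsh against 45.0 CPM in the rest, and held 6.28% of its UMIs. Cells with either set were left out of both libraries in a comparison added after the data were seen, which kept 3774 vehicle and 6647 retinoic acid cells. The difference of Ctsh between libraries was then -0.27 (-0.35 to -0.18), that of Ctsd was -0.64 and that of Ctsl -1.30. Ctsl was then the only 1 of 8 members at least 2-fold apart, beside 7.36% of all genes above 20 CPM.

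**Figure D5:**
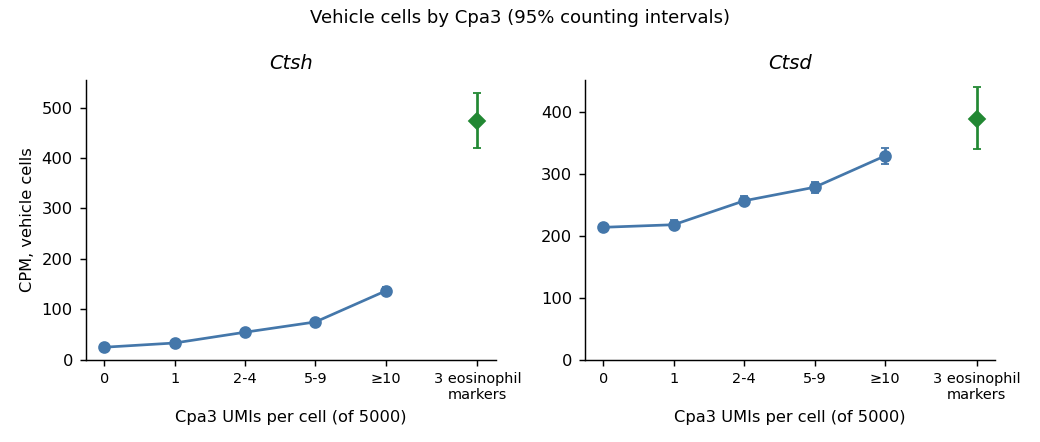
Level of Ctsh and Ctsd in CPM in vehicle cells by the number of Cpa3 UMIs in a cell thinned to 5000 UMIs, with the 53 vehicle cells that had at least 3 eosinophil markers at the right; bars are 95% counting intervals. Ctsh runs from 24.6 CPM at 0 Cpa3 UMIs to 137 CPM at 10 or more and 473 CPM in the eosinophil-marker cells, and Ctsd from 214 to 329 CPM and 388 CPM.

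The members also differed in which genes they tracked. Likeness was the Pearson r of log2(CPM + 1) over 14 groups of cells (library by granule share by cycling), searched among 5547 genes, and it describes groups that share 2 libraries and their depth. Cst7 was most like the ribosomal protein gene Rps13, the nascent chain factor gene Btf3 and Gsto1 (r of 0.99 each), and Cst3 was most like Myb, a progenitor transcription factor gene, Pabpc1 and Trim45 (0.97 each). Ctsd was most like the zinc transporter gene Slc39a4 (0.99), Rin3 (0.97) and Iqgap1 (0.96). Ctsh was most like the actin-severing gelsolin gene Gsn (0.97), the chemokine gene Ccl6 (0.96) and 2610037D02Rik (0.95).

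Ctsl was most like Bphl, the interferon-inducible Ifitm1 (0.99 each) and Bckdha (0.98), and Ctsz like 4930519L02Rik, Sipa1l1 and the cytotoxic granule gene Nkg7 (0.99 each). Ctsa was most like Man2a2, Slc27a3 (0.99 each) and H2afj (0.98). Ctsb had the weakest matches, Usb1 (0.93), Kctd12 (0.90) and the lysosomal enzyme gene Hgsnat (0.84). Among the members themselves, r was 0.97 between Cst3 and Cst7, 0.94 between Ctsa and Ctsz, 0.91 between Ctsl and Ctsz and 0.87 between Ctsd and Ctsh. It was lowest between Cst7 and Ctsh, at -0.35. Cst3 and Cst7 lie 1694723 bases apart on chromosome 2.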

How the data were processed

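Each library was deposited as 1 matrix of UMI counts, not normalized, made with Cell Ranger 4.0.0 (per the file headers) against mm10 (GRCm38.p4), per the submitters' processing notes. The gene annotation and the rule for calling cells are not given in the sources used here. The kit named in the labels' protocols is Chromium 3′ version 2, with a target of 6000 cells per sample.

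A cell needed 1000 UMIs, 500 genes and no more than 10% of UMIs from mitochondrial genes. This took out 310 of 5786 vehicle and 276 of 7416 retinoic acid barcodes, and 99107718 and 110088247 UMIs were left. No doublet caller was run and no doublet was removed. Counts were summed over cells and given as CPM. Log2 ratios had 0.5 counts added, with an exact binomial interval conditional on both sums. Levels carried exact Poisson intervals, shares of cells Clopper-Pearson intervals and differences of shares Newcombe intervals, all at 95%. The limit of 3 counts given for a count of 0 is a separate level, not the upper end of its Poisson interval. A gene called apart was at least 2-fold apart and had at least 20 CPM on either side; groups under 50 cells gave no comparison. Thinning to 5000 UMIs used a fixed seed. Positions come from GENCODE M21 on GRCm38 and promoter windows from RefSeq on GRCm38.p6.

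The members and lists were chosen with earlier results of these data known. Named were all members, genes of the lysosomal and family lists by level, the 3 most alike genes per member, and markers that moved with a member. Genes of those lists under 20 CPM (Tfe3, Lgmn, Acp5, Igf2r, Tfeb, Mitf, Ctse, Ctso, Ctsk, Ctsf) and Gm44751 were named after their values were seen. Scripts were tested on simulated data. Alternatives were TMM scaling (edgeR 4.0.16), a limit of 50 CPM or none, other mitochondrial limits, thinning depths and seeds, equal weight for cells, totals without dominant genes, other granule lists and groups, and removal of the 5% deepest cells (273 and 357). Analyses used Python 3.11.15, numpy 2.4.6, scipy 1.17.1, pandas 2.3.3 and R 4.3.3. The value of 1 marker gene is not reported here.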

Additional observations from a re-analysis of the deposited data

How the results depend on the processing

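No paired analysis was possible because the labels give 1 library for each treatment. Of 234 recomputed values, 150 stayed within the counting interval (or within 1.5 times a count) and 79 moved beyond it. The other 5 were ratios whose whole-library interval excluded 0 and which took the opposite sign. The count of members at least 2-fold apart was 2 as reported, 1 under TMM scaling, where all ratios shifted by 0.08, and 0 with a limit of 50 CPM, which Ctsh and Ctsl do not reach. Under TMM scaling the members' median was -0.65 and that of other lysosomal genes -0.17. The difference in cells with at least 4 members was -17.0 points when cells were thinned to 3000 UMIs and -15.7 points without thinning. These 5 were all found when cells of the same granule share and cycling class, a split added after the data were seen, were compared between libraries. Ctsb was then -0.23 (-0.43 to -0.02) in cycling cells of 0.1 to 0.5 percent. In the remaining cells of 0.5 to 2 percent it was -0.40, with an interval (-0.84 to 0.09) that spans 0. Cst7 was 0.081 (0.035 to 0.126) in cycling cells of 0.1 to 0.5 percent. Its values in cycling cells under 0.1 percent, 0.054 (-0.009 to 0.117), and in the remaining cells of 0.1 to 0.5 percent, 0.010 (-0.053 to 0.074), had intervals that span 0. Ctsb also changed sign in measures whose reported interval spanned 0. Its difference in positive cells was -3.32 points without thinning. That between the ends of the granule scale lay between -0.060 and -0.0011 under 3 alternatives. Without cells that bore basophil, mast cell or eosinophil markers, Ctsh was at -0.27 between libraries. The difference of Ctsh between the ends of the granule scale (1.61 as reported) was 1.07 with a wider list of maturation genes, 2.14 with 4 groups of equal size and 2.45 with the 0.1 to 0.5 percent group as the lowest. The cause of these shifts was not tested. Depth limits Ctsc and Ctss, whose counts cannot show a difference between cells.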
